A study of Mus musculus with 9 samples.

Results

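Leukocyte adhesion molecules and leukocyte-directed ligands of lung endothelial cells were compared between Tie1-CR mice, in which the receptor Tie1 cannot be shed by proteolysis (n = 5 libraries), and Tie1-WT mice, which carry wild type Tie1 (n = 4 libraries). The set was chosen by gene symbol: Vcam1, Icam1, Icam2, Selp, Sele, Ackr1, Cx3cl1 and Csf1. Of these 8 genes, 7 had a row among the 9277 genes of the deposited table, and Ackr1, an atypical chemokine receptor of venules, was not analysed here. Tie1 is an orphan endothelial receptor that modulates angiopoietin signalling, and inflammation is known to trigger its shedding. Every library name carries PBS, which all 9 libraries share, and the labels name no inflammatory challenge. The labels give the genotype, lung as tissue and endothelial cells as cell type, and neither strain, age nor sex. Whether the replicates are separate mice is not stated, so the p-values rest on the spread between libraries, which may be technical.

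Leukocytes leave the blood in steps. Selectins on the endothelium slow them, chemokines on its surface activate their integrins, and endothelial members of the immunoglobulin superfamily hold them through those integrins. Tumour necrosis factor and interleukin-1 are known to raise many of these genes through NF-kappaB. Lung capillaries are known to carry Icam1 and Icam2 also at rest. Despite the label of the set, only Cx3cl1 is a chemokine, and Csf1 is a growth factor of macrophages.

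None of the 7 measured genes passed between Tie1-CR and Tie1-WT at an adjusted p below 0.05 (limma, Benjamini-Hochberg adjusted p over 9277 genes from 0.201 to 0.984). Over all genes, 4.05% passed at an adjusted p below 0.05 (119 genes or 1.28% higher and 257 genes or 2.77% lower in Tie1-CR, against 182 higher and 190 lower with TMM scaling). The libraries of the genotypes overlapped for all 7 genes, whereas they did not overlap for 10.5% of all genes. At an unadjusted p below 0.05 limma called 1 of the 7, Selp, against 22.3% of all genes. The median log2 difference of the 7 was -0.04, beside -0.03 over all genes. Of the 7 differences, 6 lay below 0, as did 58.5% of all genes, and with TMM scaling that of Icam1 turned to 0.02.

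Values are CPM, the reads of a gene scaled to the counted reads of its library, and each library holds 38208696 to 54408116 counted reads if the smallest step of its values is 1 read. Fold changes and differences were taken on log2(CPM + 1), Tie1-CR minus Tie1-WT, which understates changes of low genes. All 13 pan-endothelial markers had rows, and their summed level was 19888 to 20487 CPM in Tie1-CR libraries and 17904 to 19897 CPM in Tie1-WT libraries. None of the 5 pan-leukocyte markers, among them Ptprc, and none of the 5 neutrophil, 8 T and NK cell or 5 B cell markers had a row. Macrophage and monocyte markers were represented by 2 of 10, Lyz2 and Cd68, at a summed 60.2 to 118 CPM in Tie1-CR libraries and 30.6 to 76.9 CPM in Tie1-WT libraries. They lay in opposite directions, with log2 differences of 1.11 for Lyz2 (limma adjusted p = 0.0669) and -0.90 for Cd68 (limma adjusted p = 0.0064). The summed level of 5 type 2 pneumocyte markers (of 7) was 288 to 627 CPM in Tie1-CR libraries and 115 to 465 CPM in Tie1-WT libraries. All 5 of these markers lay above 0, with a median log2 difference of 1.02, whereas 58.5% of all genes lay below 0. In limma 1 of them passed, and 5 had an unadjusted p below 0.05, beside 4.05% and 22.3% of all genes. The part of such cells in the values below was not tested.

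Levels of different genes were compared per kilobase of annotated exon. On that scale Icam2 was the highest of the set, with 546 ± 64.0 CPM per kb in Tie1-CR (SD, n = 5) and 506 ± 42.2 in Tie1-WT (SD, n = 4). Icam1 followed with 158 ± 10.4 CPM per kb in Tie1-CR and 159 ± 10.5 in Tie1-WT. Cx3cl1 had 121 ± 11.1 CPM per kb in Tie1-CR and 125 ± 22.7 in Tie1-WT. These 3 levels lay between the 96.9 and the 99.4 percentile of the 9031 genes whose length could be looked up. Csf1 had 40.7 ± 5.05 CPM per kb in Tie1-CR and 41.6 ± 4.70 in Tie1-WT. Vcam1 was near the middle of all genes (58.6 percentile), with 11.3 ± 2.41 CPM per kb in Tie1-CR and 13.3 ± 1.74 in Tie1-WT. The selectins were lowest. Selp had 5.58 ± 0.837 CPM per kb in Tie1-CR and 7.16 ± 1.67 in Tie1-WT, and Sele 3.32 ± 0.760 in Tie1-CR and 3.89 ± 1.31 in Tie1-WT. Across libraries the ranges of 3 neighbouring pairs in this order overlapped, namely Icam1 with Cx3cl1, Vcam1 with Selp, and Selp with Sele. Within single libraries the upper gene of each neighbouring pair was higher in 9 of 9 libraries.

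Selp encodes P-selectin, which endothelial cells store in Weibel-Palade bodies and platelets in their granules. It lies on chromosome 1 (GRCm38, 164115264 to 164150026, plus strand). The Tie1-CR libraries had 21.9, 24.1, 30.6, 25.2 and 21.3 CPM, against 23.4, 30.6, 41.3 and 31.2 CPM in the Tie1-WT libraries. All 5 Tie1-CR libraries lay below the Tie1-WT mean, but Tie1-WT replicate 1 was itself among the low libraries. The means were 24.6 ± 3.69 CPM in Tie1-CR and 31.6 ± 7.37 CPM in Tie1-WT. The log2 difference was -0.33 (SE 0.14, 95% interval -0.65 to -0.02), and it did not pass (limma unadjusted p = 0.0406, adjusted p = 0.201). An exact permutation test of the 9 libraries gave p = 0.111, two-sided, where the smallest p possible is 0.0079. Without Tie1-WT replicate 3, the highest library, the difference was -0.20, and without Tie1-WT replicate 1 it was -0.46 (adjusted p = 0.421 and 0.126, limma). In bulk RNA, fewer cells that express a gene and less RNA per cell cannot be told apart.

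Platelets also hold Selp transcript. Of 10 platelet markers, 5 had a row, among them Pf4 and Ppbp, while Gp9, Gp1ba, Gp1bb, Gp6 and Treml1 had none. Their summed level was 119, 165, 151, 137 and 125 CPM in Tie1-CR libraries, against 157, 120, 68.6 and 140 CPM in Tie1-WT libraries. All 5 lay above 0, whereas 58.5% of all genes lay below 0. Their median log2 difference was 0.34, and 0 passed, beside 4.05% of all genes. Their part in the level of Selp was not tested.

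Sele encodes E-selectin, which is made mainly after cytokine stimulation. It lies 57.6 kb before Selp on the same strand of chromosome 1 (GRCm38, 164048234 to 164057677). Sele measured 12.0, 10.6, 11.1, 6.81 and 7.89 CPM in the Tie1-CR libraries, against 9.72, 16.8, 10.8 and 8.04 CPM in the Tie1-WT libraries. Both genotypes held low and high libraries, and the highest value, in Tie1-WT replicate 2, was 2.47 times the lowest. These levels rest on 302 to 674 reads per library if the smallest step of the values is 1 read, a counting error of at most 5.75% if reads are independent. The means were 9.68 ± 2.21 CPM in Tie1-CR and 11.3 ± 3.81 CPM in Tie1-WT, a log2 difference of -0.19 (95% interval -0.63 to 0.25, limma adjusted p = 0.610). Without Tie1-WT replicate 2 the difference was 0.0033.

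The bases before the annotated starts of the selectin genes are shown because both genes are known targets of inflammatory transcription factors. Those of Csf1 are shown because they alone held an exact match to the NF-kappaB consensus that was searched. Each line gives 250 bases before the RefSeq start, 5′ to 3′ on the gene's strand, from GRCm38.p6. Capitals mark TGANTCA (AP-1), TATAAA and the NF-kappaB consensus GGGRNNYYCC, each searched on both strands. In these, R is A or G, Y is C or T and N is any base.
Selp, chr1:164115014-164115263, plus strand: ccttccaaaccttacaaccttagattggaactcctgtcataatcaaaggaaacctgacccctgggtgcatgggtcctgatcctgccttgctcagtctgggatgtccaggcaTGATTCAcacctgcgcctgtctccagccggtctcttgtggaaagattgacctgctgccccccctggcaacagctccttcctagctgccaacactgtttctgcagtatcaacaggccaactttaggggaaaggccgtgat
Sele, chr1:164047984-164048233, plus strand: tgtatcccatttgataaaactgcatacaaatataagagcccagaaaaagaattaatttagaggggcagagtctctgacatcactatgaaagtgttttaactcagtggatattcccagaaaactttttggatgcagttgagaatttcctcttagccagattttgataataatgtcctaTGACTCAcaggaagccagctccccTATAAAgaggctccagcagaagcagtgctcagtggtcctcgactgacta
Csf1, chr3:107760470-107760719, minus strand: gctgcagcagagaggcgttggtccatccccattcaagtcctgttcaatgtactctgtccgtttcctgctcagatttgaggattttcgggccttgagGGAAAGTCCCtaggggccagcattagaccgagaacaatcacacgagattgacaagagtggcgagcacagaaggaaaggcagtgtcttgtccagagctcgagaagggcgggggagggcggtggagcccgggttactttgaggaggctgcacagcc

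RefSeq gave such a window for 6 of the 8 genes. Those of Ackr1 (173333504 to 173333753) and Cx3cl1 (94771930 to 94772179) reach into the genes as GENCODE places them. GENCODE has Ackr1 up to 173333750 on the minus strand and Cx3cl1 from 94772009 on the plus strand. TGANTCA was found in the windows of Selp, 139 to 133 bases before the start, and of Sele, 73 to 67 bases before it. Of 32851 mouse promoter windows of this length, 6.75% held it. An exact match to the NF-kappaB consensus was found only in the window of Csf1, on the opposite strand, and in 7.25% of all windows. Sequences that depart from this consensus at any base were not counted. TATAAA was found in the window of Sele, 49 to 44 bases before the start, and in 12.4% of all. It was also in that of Cx3cl1, but 6 to 1 bases before the RefSeq start. GCGTGGGCG, an EGR motif, was in none of the 6 and in 0.536% of all. TTCCNGGAA, a STAT motif, was in the window of Icam1 and in 0.913% of all. AGGAAG, an ETS core, was in those of Selp, Sele, Ackr1 and Cx3cl1 and in 29.5% of all. A match describes the letters and is no evidence of binding. A window without a match may still hold a site of another sequence.

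Vcam1 encodes the vascular ligand of the leukocyte integrin VLA-4. It lies on chromosome 3 (GRCm38, 116109949 to 116129688, minus strand). The Tie1-CR libraries had 121, 96.9, 124, 85.5 and 75.7 CPM, against 103, 125, 137 and 108 CPM in the Tie1-WT libraries. Tie1-CR libraries lay below all Tie1-WT libraries in 3 cases and among them in the other two. The means were 101 ± 21.3 CPM in Tie1-CR and 118 ± 15.5 CPM in Tie1-WT, a log2 difference of -0.25 (SE 0.14, 95% interval -0.56 to 0.07, limma adjusted p = 0.331). The exact permutation test gave p = 0.214. The difference was -0.15 once the lowest library, Tie1-CR replicate 5, was left out (limma adjusted p = 0.512).

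Icam1 encodes a ligand of the leukocyte integrins LFA-1 and Mac-1, and it differed least. It lies on chromosome 9 (GRCm38, 21015985 to 21028817, plus strand). Icam1 measured 736, 736, 641, 690 and 650 CPM in the Tie1-CR libraries, against 688, 647, 679 and 755 CPM in the Tie1-WT libraries. The genotypes spanned nearly the same range, and the means were 691 ± 45.4 CPM in Tie1-CR and 692 ± 45.6 CPM in Tie1-WT. The 95% interval of the difference ran from -0.15 to 0.14 log2, or from 0.904-fold to 1.10-fold of Tie1-WT (limma adjusted p = 0.984).

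Icam2 encodes a constitutive endothelial ligand of LFA-1 and lies on chromosome 11 (GRCm38, 106377656 to 106388075, minus strand). The Tie1-CR libraries had 1254, 994, 983, 1016 and 953 CPM, against 943, 929, 900 and 1081 CPM in the Tie1-WT libraries. Tie1-CR replicate 1 stood apart above the other Tie1-CR libraries, and 3 Tie1-WT libraries lay below every Tie1-CR library. Icam2 alone in the set had a higher mean in Tie1-CR, at 1040 ± 122 CPM, against 963 ± 80.4 CPM in Tie1-WT. The log2 difference was 0.11 (95% interval -0.08 to 0.30, limma adjusted p = 0.493), and without Tie1-CR replicate 1 it was 0.04.

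Cx3cl1 encodes fractalkine, a membrane-bound chemokine whose receptor Cx3cr1 is carried by monocytes and NK cells. It lies on chromosome 8 (GRCm38, 94772009 to 94782427, plus strand). Cx3cl1 measured 455, 410, 496, 524 and 484 CPM in the Tie1-CR libraries, against 512, 460, 392 and 604 CPM in the Tie1-WT libraries. The highest and the lowest library were both Tie1-WT. The means were 474 ± 43.7 CPM in Tie1-CR and 492 ± 89.3 CPM in Tie1-WT, a log2 difference of -0.04 (95% interval -0.29 to 0.20, limma adjusted p = 0.859).

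Csf1 encodes the ligand of the macrophage receptor Csf1r and lies on chromosome 3 (GRCm38, 107741048 to 107760469, minus strand). Csf1 measured 190, 257, 223, 201 and 203 CPM in the Tie1-CR libraries, against 248, 224, 188 and 218 CPM in the Tie1-WT libraries. The highest library was a Tie1-CR one and the lowest a Tie1-WT one. The means were 215 ± 26.7 CPM in Tie1-CR and 220 ± 24.8 CPM in Tie1-WT, a log2 difference of -0.03 (95% interval -0.24 to 0.18, limma adjusted p = 0.868).

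**Figure D1:**
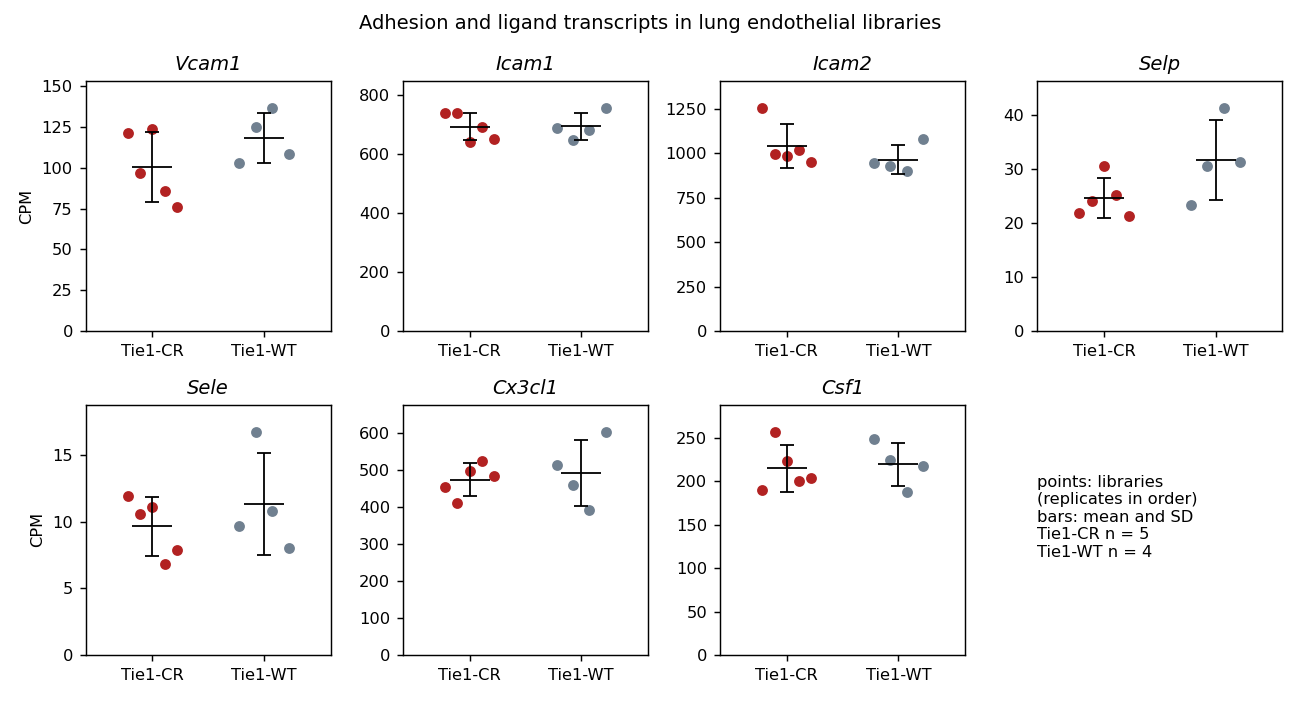
Level in CPM of the 7 measured genes in every library, Tie1-CR left of Tie1-WT, with points in replicate order and bars for the mean and SD. The genotypes overlap in all 7 panels. Selp has its 5 Tie1-CR libraries between 21.3 and 30.6 CPM and its 4 Tie1-WT libraries between 23.4 and 41.3 CPM.

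For 5 of the 7 genes the 95% interval lay within a 1.5-fold change in either direction. It reached beyond that for Selp and Sele, whose lower bounds were 0.639-fold and 0.647-fold of Tie1-WT. A p that misses the threshold therefore leaves a different range of differences for each gene, narrow for Icam1 and wide for Sele. The exons of Vcam1, Icam1 and Selp overlap annotated genes of the opposite strand (Gm43109, Gm47079, and Gm16548 with Gm16587), and the strand setting of the counting is not given in the sources used here.

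**Figure D2:**
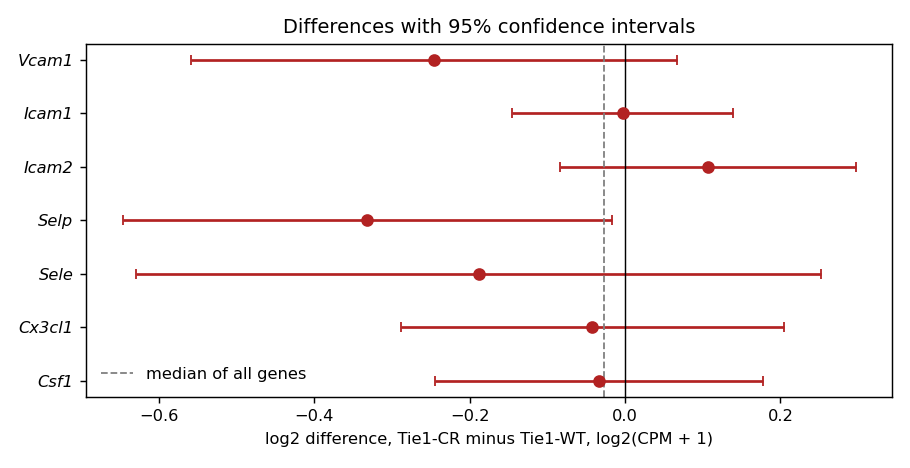
Log2 difference, Tie1-CR minus Tie1-WT, of the 7 genes (points) with 95% confidence intervals from limma (bars), and the median of all genes as a dashed line. The interval of Icam1 runs from -0.15 to 0.14 and that of Sele from -0.63 to 0.25.

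The libraries of one genotype varied more for some of these genes than for most genes. The SD within genotypes on the log2 scale was 0.36 for Sele, 0.26 for Selp and 0.26 for Vcam1. Among the 500 genes nearest in level, these SDs were larger than those of 95.6%, 95.8% and 97.8%. Cx3cl1 (0.20), Csf1 (0.17) and Icam2 (0.14) exceeded 89.0%, 86.6% and 73.8% of the genes near their own level. Icam1 (0.09) exceeded 40.8%, and its highest library was 1.18 times its lowest.

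**Figure D3:**
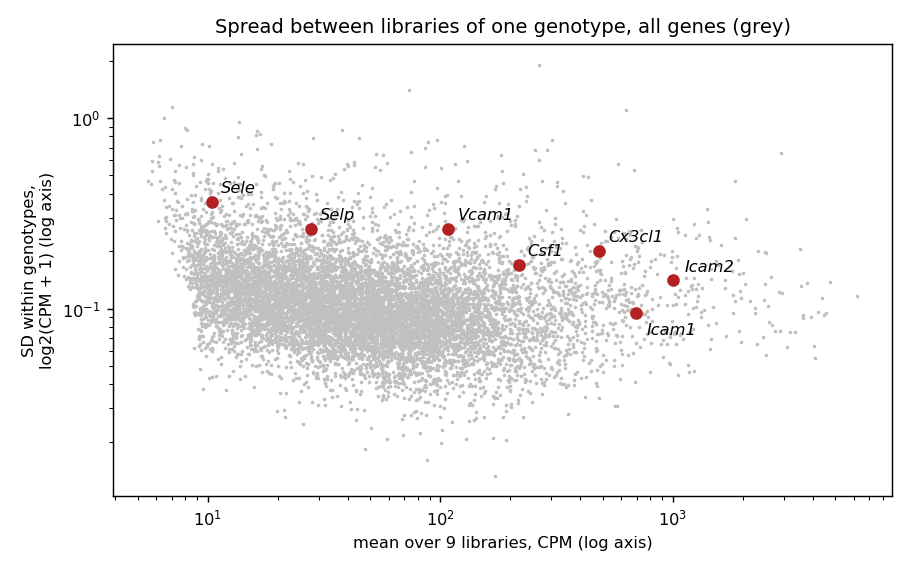
SD of log2(CPM + 1) within genotypes against the mean level in CPM over 9 libraries, both on log axes, for all 9277 genes (grey) and the 7 genes of the set (red). Sele, Selp and Vcam1 lie near the upper edge of the genes at their level, and Icam1 lies within the bulk.

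After subtraction of each genotype mean, the genes did not share 1 pattern over the 9 libraries. Vcam1 was high in Tie1-CR replicates 1 and 3, by 0.29 and 0.32 log2, and low in Tie1-CR replicate 5, by -0.38. Sele was likewise high in Tie1-CR replicates 1 and 3, by 0.31 and 0.21, and low in Tie1-CR replicate 5, by -0.24. Selp was high in Tie1-CR replicate 3 and Tie1-WT replicate 3, by 0.31 and 0.40, where Cx3cl1 deviated by 0.07 and -0.31. Described over the 9 libraries, in which both genes of a pair share depth and composition, Pearson's r was 0.72 for Icam1 with Icam2, 0.68 for Vcam1 with Sele and 0.58 for Vcam1 with Selp. The selectins had an r of 0.13 with each other, and Sele with Cx3cl1 had -0.56.

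**Figure D4:**
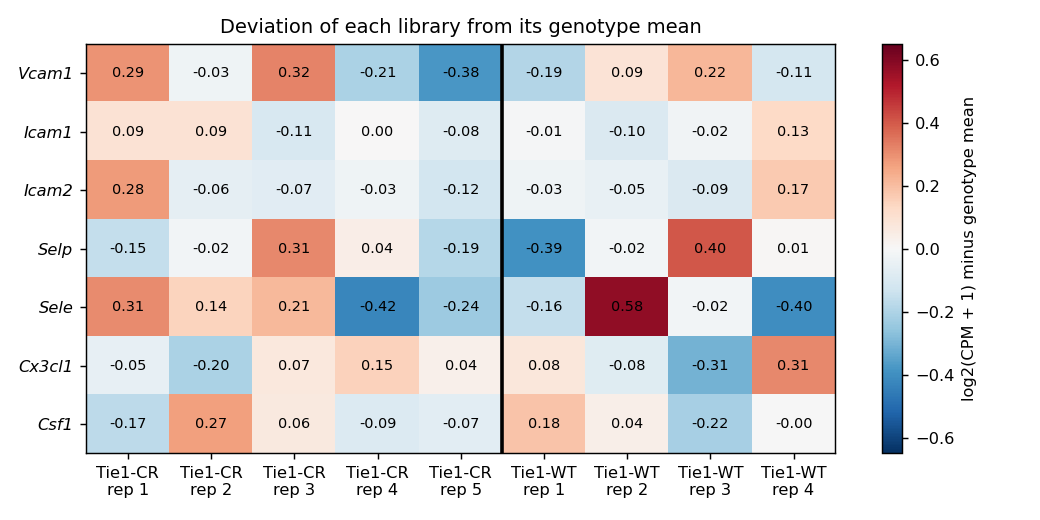
Deviation of log2(CPM + 1) from the genotype mean for 7 genes (rows) in 9 libraries (columns, Tie1-CR left of the line). Sele ranges from -0.42 in Tie1-CR replicate 4 to 0.58 in Tie1-WT replicate 2, and Icam1 stays within -0.11 and 0.13.

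Among all 9277 genes, those whose deviations were most like each member's over the 9 libraries were Eif3c and Clcc1 for Vcam1, Hsd17b11 and Begain for Icam1, and Mxra7 and Itm2b for Icam2. For Selp they were Nfkbil1 and Klhl6, for Sele Kifc3 and Mxi1, for Cx3cl1 Anxa6 and Alg2, and for Csf1 Sptbn1 and Jak2. Pearson's r ran from 0.85 for Clcc1 to 0.98 for Mxra7. None of these 14 genes passed between the genotypes (limma adjusted p from 0.167 to 0.998).

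Genes that act beside this set were taken from lists of endothelial adhesion, chemokines, cytokines, leukocyte counter-receptors, inducers of adhesion molecules and venous endothelium. Of 142 listed genes 81 were measured, and 7 of these passed (8.64%, beside 4.05% of all genes). Among these 7, Egr1 and Nfkbiz were known to fall when the lists were made, so the share is not independent evidence. Among 21 other adhesion and transmigration genes, 2 rose and 0 fell (9.52% called), with a median log2 difference of 0.06. Mcam, an endothelial adhesion molecule of the immunoglobulin superfamily, had 590 ± 57.2 CPM in Tie1-CR and 465 ± 13.8 CPM in Tie1-WT (limma adjusted p = 0.0241). B3gnt3, a glycosyltransferase that extends the glycans of L-selectin ligands, had 181 ± 8.64 CPM in Tie1-CR and 150 ± 10.8 CPM in Tie1-WT (limma adjusted p = 0.0278). The calls of Mcam and B3gnt3 ended without Tie1-WT replicate 1 or 2 (limma adjusted p = 0.0653 to 0.091). Both also ended with replicate number as a block (limma adjusted p = 0.0649 for Mcam and 0.103 for B3gnt3). That of Mcam ended without Tie1-WT replicate 3 (0.0653) or when markers of other cell types entered the fit (0.0635, with a log2 difference of 0.29 against 0.34 without them). These 28 markers were all those measured outside the pan-endothelial list, and 4 of them mark lymphatic endothelium. The call of B3gnt3 also ended without Tie1-CR replicate 4 (0.0615).

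Among 8 measured chemokines and atypical receptors, 1 rose and 0 fell (12.5% called, beside 4.05% of all genes), with a median of 0.20. Ackr2, a scavenging receptor of inflammatory CC chemokines known from lymphatic endothelium, had 375 ± 17.0 CPM in Tie1-CR and 289 ± 32.6 CPM in Tie1-WT. Its Tie1-CR libraries, from 359 to 401 CPM, lay above all Tie1-WT libraries, from 243 to 319 CPM. Ackr2 was named because it passed limma in these libraries, so this is no separate evidence, and 10.5% of all genes did not overlap. The log2 difference was 0.38 (SE 0.07, limma adjusted p = 0.0206), and the call ended without Tie1-WT replicate 1 or 3 (0.0595 and 0.0501). Of 5 lymphatic markers 4 had a row, all but Prox1, and they summed to 1179 to 1526 CPM in Tie1-CR libraries and 1087 to 1651 CPM in Tie1-WT libraries. Their part in the level of Ackr2 was not tested. Cxcl12, the chemokine of Cxcr4-bearing leukocytes, differed by 0.21 (limma adjusted p = 0.361).

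Of 6 other cytokines and growth factors, Il1a fell and the rest did not pass (16.7% called, beside 4.05% of all genes). Their median was -0.04. Il1a, the gene of interleukin-1 alpha, had 13.0 ± 2.40 CPM in Tie1-CR and 18.7 ± 1.78 CPM in Tie1-WT, a log2 difference of -0.51 (limma adjusted p = 0.0476). That call ended in 11 of 18 alternative fits, among them TMM scaling (adjusted p = 0.0582) and each of the 4 fits without a Tie1-WT library (0.0632 to 0.147). The other fits that ended it included quantile normalization, markers of other cell types as a term and the fits without Tie1-CR replicate 3, 4 or 5 (0.0588 to 0.111). With markers of other cell types as a term, the log2 difference of Il1a was -0.49. Of 12 leukocyte counter-receptors, the integrin gene Itgb7 alone had a row, with 7.60 ± 0.950 CPM in Tie1-CR and 9.09 ± 1.69 CPM in Tie1-WT (limma adjusted p = 0.314).

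All 33 genes listed as inducers of adhesion molecules were measured, but the list also holds inhibitors of NF-kappaB such as Nfkbia and Tnfaip3. Of the 33 genes, inhibitors included, 2 fell and 0 rose (6.06% called, beside 4.05% of all genes), with a median of -0.06. The fall of both in these data was known when the list was made, so the count is not independent evidence. The transcription factor gene Egr1 had 821 ± 100.5 CPM in Tie1-CR and 2214 ± 414 CPM in Tie1-WT (log2 difference -1.42, limma adjusted p = 0.000657). Nfkbiz, which encodes a nuclear regulator of NF-kappaB targets, had 45.3 ± 6.63 CPM in Tie1-CR and 132 ± 30.02 CPM in Tie1-WT (log2 difference -1.50, limma adjusted p = 0.000913). The NF-kappaB subunit genes Rela, Nfkb1 and Rel differed by 0.08, -0.08 and -0.40 (limma adjusted p = 0.339, 0.45 and 0.0559). The receptor genes Tnfrsf1a and Il1r1 differed by 0.11 and -0.07 (limma adjusted p = 0.167 and 0.595). Rela, Nfkb1, Rel, Tnfrsf1a, Il1r1 and Cxcl12 were named after their values were seen.

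Selp and Vcam1 are known to be richer in veins, so venous markers are given beside them. Of 12 markers 1 rose and 0 fell (8.33% called, beside 4.05% of all genes). Of the 12 differences 9 lay above 0, whereas 58.5% of all genes lay below 0. Their median was 0.16 and their range -0.48 to 0.40. The receptor gene Ephb4 had 999.7 ± 32.1 CPM in Tie1-CR and 792 ± 37.0 CPM in Tie1-WT (log2 difference 0.34, limma adjusted p = 0.00787). Their part in the differences of Selp and Vcam1 was not tested.

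**Figure D5:**
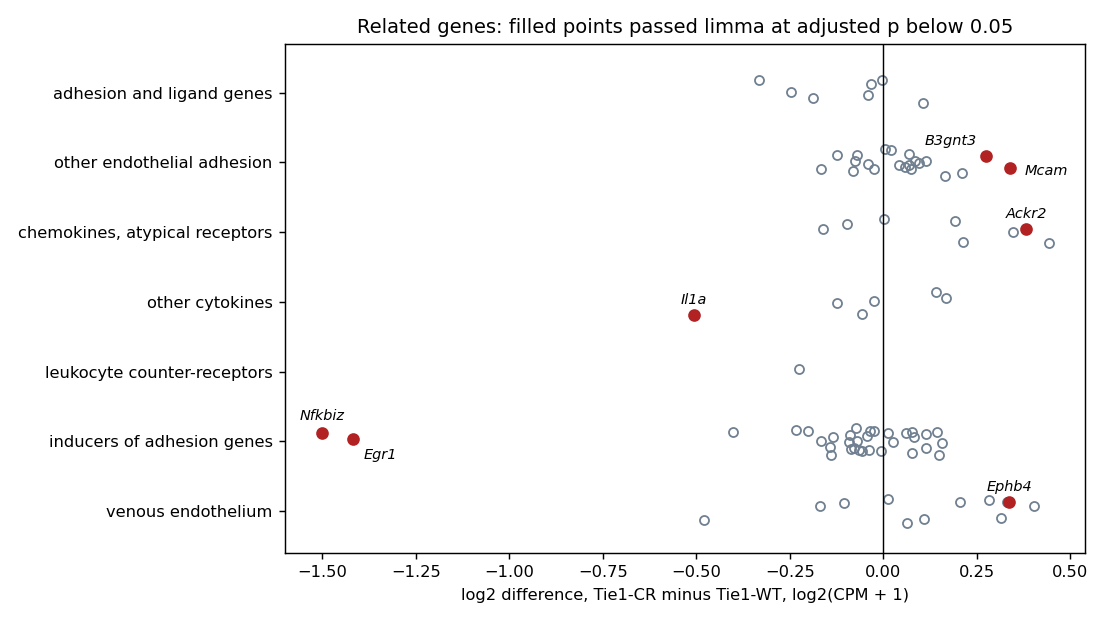
Log2 difference, Tie1-CR minus Tie1-WT, of the 7 genes of the set and of 81 related genes by list, with filled points for genes at a limma adjusted p below 0.05. No gene of the set is filled, and the 7 filled points are Mcam, B3gnt3, Ackr2, Il1a, Egr1, Nfkbiz and Ephb4.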

How the data were processed

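Per the labels' protocols, a PicoPure kit served for extraction and a SMARTer Ultra Low kit, based on amplified cDNA, for library construction. STAR 2.7 and the builds GRCm38.p6 and mm10 are named in the submitters' processing notes. Not given in the sources used here are the counter, annotation, gene filter and cell isolation. Because libraries are numbered by genotype, any effect of the order of handling cannot be told apart from it. The authors deposited 1 table named as TPM. Its deposited values behave as CPM, since 100% of them are whole multiples of 1 step per library (tolerance 0.01 reads), and 98.3% to 98.6% of the counted reads implied by the step fall in the table. The log-scale test planned for TPM was kept. Each gene of the table reaches at least 10.0 CPM in some library.

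Log2(CPM + 1) was fitted with limma 3.58.1 (R 4.3.3, trended empirical Bayes, two-sided), with at least 1 CPM in 4 libraries (0 genes removed) and Benjamini-Hochberg adjustment at 0.05. The fit was tested on simulated data. Exact permutation used all 126 arrangements. Exon lengths and positions came from GENCODE M21 (GRCm38), which matched 9031 symbols (97.3%) uniquely, and sequences from RefSeq GRCm38.p6. TMM scaling was computed without precision weights. Plots used matplotlib 3.10.9.

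The members and lists were chosen with earlier results of these data known. Named are all members, the genes of each list past the threshold (up to 4, by adjusted p), otherwise the 2 highest and the 2 of smallest p, and for each member the 2 most correlated genes. Of the lists of other cell types, mesothelium had 0 of 3 markers measured, and type 1 pneumocyte, airway, fibroblast and pericyte and smooth muscle markers had 3 each, with median log2 differences of -0.25, 1.10, -0.18 and -0.14.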

Additional observations from a re-analysis of the deposited data

Results flagged for a closer look

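Icam2 in Tie1-CR replicate 1 measured 1254 CPM, far above the nearest other Tie1-CR library at 1016 CPM. The gap was 0.790 of the range of the 5 libraries, above the critical value of 0.710 for 5. It was the only such library in 14 groups (7 genes in each genotype), where chance flags about 1 in 20.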

How the results depend on the processing

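None of the 7 measured genes passed in any alternative run, among pseudocounts, filters, scalings, variance models, a covariate, a threshold of 0.10 and each library left out. The exact Wilcoxon test could call no gene, since its smallest p with 5 against 4 libraries is 0.0159 and its smallest adjusted p was 0.151. The lowest adjusted p was 0.101, for Selp with the replicate block. The directions of Vcam1, Selp and Icam2 held in the 15 distinct differences that the alternatives gave (filters, robust variance and the Wilcoxon test leave a difference as it is, and the replicate block gives that without Tie1-CR replicate 5), with differences from -0.33 to -0.15, -0.46 to -0.20 and 0.04 to 0.16. Icam1 turned to 0.023 with TMM scaling, 0.0085 with a term for other cell types and 0.018 with the replicate block. With each library left out in turn, Icam1 ran from -0.035 to 0.040, Csf1 from -0.11 to 0.027, Cx3cl1 from -0.15 to 0.062 and Sele from -0.32 to 0.0033. The cause of these changes was not tested.

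The number of all genes past the threshold was 376, but 661 with library weights, 151 with a term for other cell types, 906 at 0.10 and 0 with the exact Wilcoxon test (1498 at an unadjusted p below 0.05), and 60 to 355 with each library left out (60 without Tie1-WT replicate 1). Of related genes, 7 passed, but 12 at 0.10 and 0 with the exact Wilcoxon test (17 unadjusted), and 3 to 8 with each library left out. Lower genes made up 68.4% of calls, 51.1% with TMM scaling and 50.9% with quantile normalization. No label says that replicate numbers pair the samples. Same-numbered libraries had correlations of deviations of -0.14, 0.00, -0.06 and 0.19, which are too few to settle whether they are paired. With the replicate block, in which Tie1-CR replicate 5 has no partner, 183 genes and 4 related genes passed. Planned count tests were not run: the values are CPM, and since even the lowest stand for many reads, the step could not be checked against single reads. A filter of 20 CPM in every library of a genotype removed Sele and Il1a.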
